A study of Homo sapiens with 8 samples.

Results

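The genes described here copy the genome in S phase: 51 symbols of DNA replication and of the G1/S transition were listed, and 50 of them were found by symbol among the 57736 Ensembl gene IDs of the count tables. UHRF1 was the symbol without a match and is not analysed here. The members fall into 9 role groups, namely origin licensing (10 genes), helicase activation (6), the sliding clamp and its loader (6), polymerases, primase and the single-strand binding protein RPA (10), nucleotide supply (5), Okazaki fragment processing and repair (4), fork protection and checkpoint (2), G1/S regulators (4), and chromatin assembly and DNA methylation (3).

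All 8 libraries came from IMR90 cells, a line of human fetal lung fibroblasts. An RNA-seq pair compared control cells with cells in which ADAR1 was knocked down. The precipitation experiment used 3 lines, labelled shControl, shADAR1 and shHuR. From each line came 1 input library and 1 library of RNA recovered with an antibody against HuR. ADAR1 (gene ADAR) edits adenosine in double-stranded RNA, HuR (gene ELAVL1) binds U-rich and AU-rich stretches of mRNAs, and sh denotes a short hairpin RNA against the named target. Every group held 1 library, so a difference between a pair of libraries had no replicate check. The labels give neither the hairpin sequences, nor the number of clones, nor the time after knockdown, and no mock precipitate was used here. The title of the series names p16 and senescence, a state in which cells no longer enter S phase.

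Replication starts with licensing in G1, when the origin recognition complex, CDC6 and CDT1 load the ring of MCM proteins onto DNA. In S phase CDC45 and the GINS complex turn that ring into the active helicase, and primase, the polymerases, the clamp PCNA and the nucleotide enzymes follow. Many of these genes are transcribed around the G1/S transition under the E2F factors, so in fibroblasts their RNA marks cycling cells. In bulk RNA, fewer cells in S phase and less RNA per cell cannot be told apart.

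Promoters are shown first because the members moved together in the input libraries. RefSeq promoters (GRCh38.p14, from 250 bases before the start) were matched by symbol for 44 of the 50 members, and 16 of these 44 (36.4%) held an exact E2F motif against 4.6% of 15843 protein-coding genes and 3.4% of all 27305 genes in the table. The motif was searched on both strands in 4 spellings: TTTCCCGC or TTTCGCGC or TTTGCCGC or TTTGGCGC. Members often contribute to textbook definitions of E2F targets, so the share describes the list. A CCAAT box, searched as CCAAT on both strands, stood in 25 of 44 members (56.8%) against 40.2% of coding genes, and a CHR element, searched as TTTGAA or TTCGAA, in 3 of 44 (6.8%) against 15.6%. Windows of 30 bases follow for members that the results below turn on, read along the gene's strand with the E2F match in capitals, in either orientation.
E2F1, chr20:33686387-33686416, minus strand: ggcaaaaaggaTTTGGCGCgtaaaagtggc
E2F2, chr1:23531257-23531286, minus strand: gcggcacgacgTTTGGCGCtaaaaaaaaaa
CDT1, chr16:88803743-88803772, plus strand: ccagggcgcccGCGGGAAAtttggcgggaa
GINS2, chr16:85688967-85688996, minus strand: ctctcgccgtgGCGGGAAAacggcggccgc
MCM7, chr7:100101566-100101595, minus strand: cagctcggaccGCGGGAAAcccggcgcctg
PCNA, chr20:5126663-5126692, minus strand: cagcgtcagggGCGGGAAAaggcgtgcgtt
RFC3, chr13:33818083-33818112, plus strand: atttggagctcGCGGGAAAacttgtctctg
TYMS, chr18:657603-657632, plus strand: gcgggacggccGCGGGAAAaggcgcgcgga
The match lay 20 bases before the start in the E2F1 window, 31 in GINS2, 35 in CDT1 and 59 in PCNA. A match describes letters in a window and is not a measured site.

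Stretches of the 3′ untranslated region are shown because HuR recovery differed widely between members. They were taken from GENCODE 29 transcripts, using the longest 3′ untranslated region among a gene's basic coding transcripts, and the capitals mark an unbroken run of T.
GINS1: tatgacccgTTTTTTTTTTTgttttgtttt
PRIM2: gcctggccTTTTTTTTTTTTTTaacctttt
E2F2: tttcttcTTTTTTTTTTTTTTTgagatgga
RRM2: acataaTTTTTTTTTTTTTTTTTgagatgg
MCM6: ccagttgTTTTTTTTTTTTTTTaagtttat
LIG1: tgtccccacaTTTTTTTTTTctgccatgtg
The runs begin 1021 bases after the stop codon in GINS1, 353 in PRIM2, 2350 in E2F2, 1245 in RRM2, 597 in MCM6 and 343 in LIG1. The first 4 of these genes were recovered with HuR above their input and the last 2 below it, as given further on.

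Total counts per library ran from 28390935 to 50711218. The members took 0.229% of counts in the RNA-seq control, 0.291% in the RNA-seq knockdown, and 0.155%, 0.0925% and 0.0504% in the shControl, shADAR1 and shHuR inputs. All 8 fibroblast markers were detected in every library. The targeted genes were lower where the labels say so: the log2 ratio of ADAR was -2.81 in the RNA-seq knockdown and -1.56 in the shADAR1 input, and that of ELAVL1 was -2.73 in the shHuR input. Levels below are CPM, counts scaled to a fixed library total, after TMM scaling, which sets libraries to a common level by their bulk of genes, within the RNA-seq pair or within the 3 inputs, so they are not compared across experiments. A gene was called higher or lower at a 2-fold difference if 1 of the libraries held 50 or more counts, and bracketed intervals are exact conditional binomial ones at 95% that cover counting error only.

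In the RNA-seq pair most members of the list stood slightly higher after ADAR1 knockdown and few reached 2-fold. Of the 49 members with enough counts, 41 had a log2 ratio above 0 and 8 below, with a median of 0.34 against -0.01 for all 13235 genes. GINS3, E2F1 and RPA3 were the 3 called higher, where 8.31% of all genes were called higher, and 0 members were called lower, against 7.71% of all genes. E2F2 had 24 and 42 counts and was the member left out.

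The E2F1 level, a transcription factor that drives G1/S genes, was 5.42 CPM in the control library and 11.7 CPM in the knockdown library, 2.16-fold higher (log2 1.11, interval 0.89 to 1.35). GINS3, a GINS subunit, stood at 5.06 and 12.8 CPM, 2.54-fold higher (1.34, 1.11 to 1.58). RPA3, the smallest RPA subunit, stood at 18.8 and 38.6 CPM, 2.05-fold higher (1.04, 0.91 to 1.16). Just under the limit was RRM2, the regulated subunit of ribonucleotide reductase, at 135 and 259 CPM (0.94, 0.90 to 0.99). Once GC and length trends were taken out, E2F1 came to 0.92 and was no longer called.

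All 10 licensing members lay above 0 in the RNA-seq pair. On counts they ran from MCM2 (43.3 and 49.6 CPM, log2 0.19) to MCM7 (120 and 200 CPM, 0.73), and FPKM ordered them otherwise, as given below. For MCM7, 8.9% of the exon length is shared with AP4M1 on the other strand. The helicase activators spanned a wider range. CDC45 had 21.3 and 38.2 CPM (0.84) and GINS2 10.9 and 17.5 CPM (0.68), while GINS4 was the 1 activator below 0 (24.8 and 21.7 CPM, -0.20). For GINS4, 23.6% of the exon length is shared with antisense genes, so its counts are uncertain.

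The clamp loader was split. RFC1, its large subunit, was the lowest member, with 131 CPM in the control and 72.9 CPM in the knockdown (log2 -0.85, interval -0.91 to -0.79). The small subunits ran from RFC4 (32.9 and 29.3 CPM, -0.16) to RFC2 (23.6 and 30.9 CPM, 0.39). PCNA, the clamp itself, had 161 and 174 CPM (0.11).

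Among polymerase subunits the ratios were small. POLA1, the catalytic subunit of the priming polymerase, stood at 37.5 and 36.7 CPM (log2 -0.03), POLE at 22.3 and 22.9 CPM (0.04) and POLD1 at 9.01 and 11.6 CPM (0.37). The large primase subunit PRIM2 was lower (42.5 and 33.0 CPM, -0.36) and the small one, PRIM1, stood at 12.6 and 13.7 CPM (0.12, -0.05 to 0.29). RPA2 joined RPA3 on the higher side with 48.9 and 77.6 CPM (0.67).

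Nucleotide enzymes were above 0 throughout, led by RRM2 and by the dUTP hydrolase DUT (25.2 and 45.8 CPM, log2 0.86), with thymidylate synthase TYMS at 30.5 and 32.3 CPM (0.08, -0.03 to 0.19). Exon sharing makes TYMS (46.6%, mostly with ENOSF1 on the other strand) and DUT (14.5%) uncertain. FEN1, the flap endonuclease of lagging-strand synthesis, stood at 45.3 and 77.6 CPM (0.78); a near-identical copy, FEN1P1, may take part of its reads. BRCA1, which protects and repairs forks, was below 0 (37.0 and 28.5 CPM, -0.38), as was the checkpoint adaptor CLSPN (106 and 97.4 CPM, -0.13). CCNE1 (0.03) and CCNE2 (0.05), the cyclins E, were near 0.

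Per transcript length, the deposited FPKM ordered the RNA-seq control from RRM1 (158) and RRM2 (150) over PCNA (145), DNMT1 (130) and MCM7 (117) down to GINS3 (2.70), E2F1 (2.39), CDT1 (1.60) and E2F2 (0.12). For DNMT1, the maintenance DNA methyltransferase, FPKM and counts parted: FPKM went from 130 to 246 between the libraries and CPM from 131 to 147. They also parted for MCM2, at 13.7 and 24.6 FPKM. With a pseudocount of 0.5 its log2 ratio was 0.82, the highest of the licensing members, where counts gave the lowest (0.19). MCM6 came to 0.71 by FPKM and 0.33 by counts (0.325). With FPKM and a pseudocount of 0.5 in place of counts, 3 members were called higher and 0 lower, but they were GINS3 (log2 1.19), RPA3 (1.10) and LIG1 (1.06). E2F1, at 2.39 and 5.12 FPKM, came to 0.96 and was not called on that scale.

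**Figure D1:**
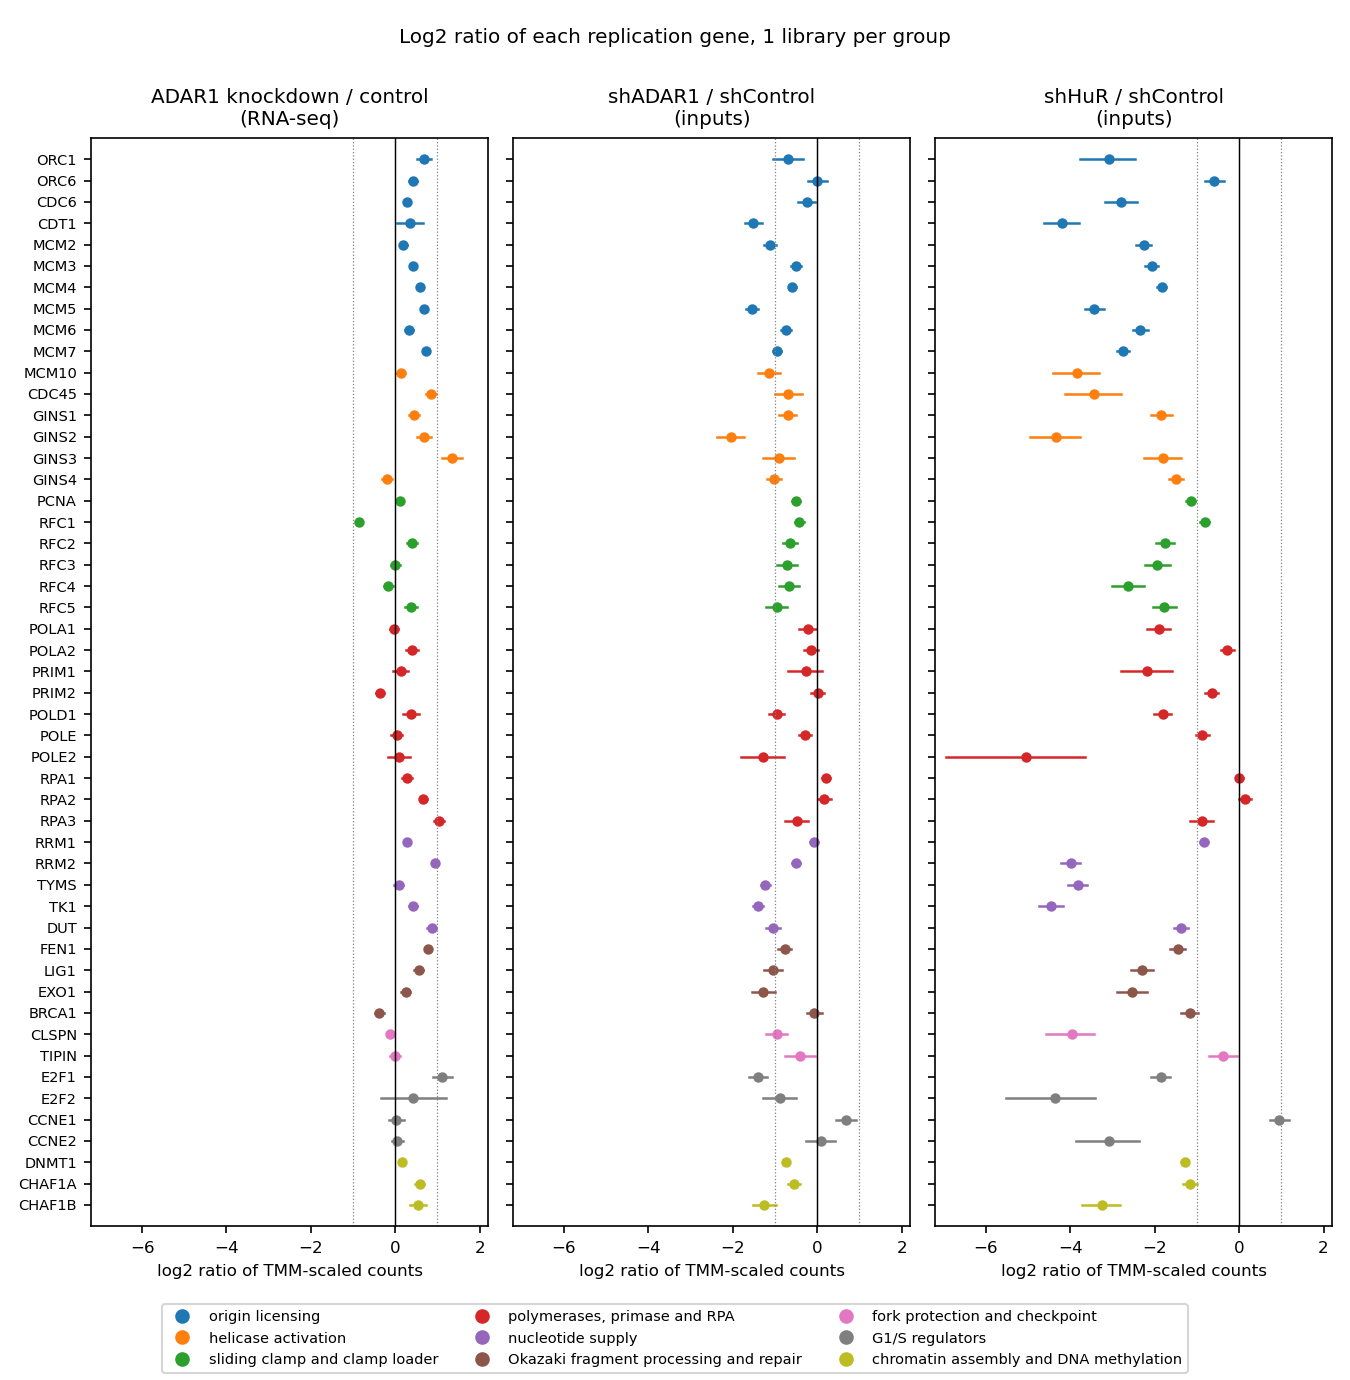
Log2 ratio of TMM-scaled counts for each of the 50 members in the RNA-seq pair and in the shADAR1 and shHuR inputs against the shControl input, coloured by role; lines are 95% counting intervals and dotted lines mark 2-fold. Most points lie right of 0 in the first panel (median 0.34), left of it in the second (median -0.69) and further left in the third (median -1.87).

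In the inputs of the second experiment the same genes stood lower with shADAR1. Of 50 members, 14 were called lower, against 10.6% of 13192 genes, and 0 higher, against 8.94%. The median log2 ratio was -0.69, beside -0.04 for all genes, and 44 members were below 0. The members called were CDT1, MCM2, MCM5, MCM10, GINS2, GINS4, POLE2, TYMS, TK1, DUT, LIG1, EXO1, E2F1 and CHAF1B.

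GINS2 had the lowest ratio, with 14.8 CPM in the shControl input and 3.60 CPM in the shADAR1 input, 4.13-fold lower (log2 -2.04, interval -2.37 to -1.73). MCM5, a subunit of the MCM ring, went from 56.4 to 19.4 CPM, 2.91-fold lower (-1.54, -1.68 to -1.40). CDT1, which loads that ring, went from 27.6 to 9.65 CPM, 2.86-fold lower (-1.52, -1.72 to -1.32). Within the same ring MCM3 (-0.50) and MCM4 (-0.59) did not reach 2-fold, nor did MCM6 (-0.74) and MCM7 (-0.94).

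TK1, the salvage thymidine kinase, went from 65.6 to 24.9 CPM (log2 -1.40, interval -1.52 to -1.27) and TYMS from 72.5 to 30.9 CPM (-1.23). Ribonucleotide reductase was nearer to control, with RRM1 at 57.8 and 54.5 CPM (-0.08, -0.18 to 0.01) and RRM2 at 77.4 and 54.9 CPM (-0.50). E2F1 went from 21.7 to 8.26 CPM (-1.39, -1.61 to -1.18). CCNE1 was the highest member, with 7.03 CPM in the shControl input and 11.3 CPM in the shADAR1 input, 1.61-fold higher (0.69, 0.45 to 0.93).

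In the shHuR input the difference was deeper and broader. Of 50 members, 39 were called lower, where 15.9% of 13390 genes were, and 0 higher, where 12% were. The median log2 ratio was -1.87 beside -0.03 for all genes. Both hairpin lines were set against the same shControl input, so the pair of comparisons shares that library.

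Licensing genes showed the range well. CDT1 stood at 27.6 CPM in the shControl input, 9.65 in shADAR1 and 1.503 in shHuR, 18.4-fold lower in the last (log2 -4.20, interval -4.63 to -3.80). MCM5 stood at 56.4, 19.4 and 5.22 CPM (-3.43), and MCM4 at 80.4, 53.5 and 22.5 CPM (-1.84). CDC6, the loader's ATPase, stood at 13.7, 11.5 and 1.99 CPM, so its difference lay almost wholly in the shHuR library. ORC1 stood at 5.79, 3.60 and 0.681 CPM (-3.09), and ORC6, at 11.1, 11.1 and 7.37 CPM, was the 1 licensing member not called (-0.59).

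All 6 helicase activators were called lower in the shHuR input, from GINS2 (14.8, 3.60 and 0.737 CPM, log2 -4.33) to GINS4 (32.1, 15.8 and 11.3 CPM, -1.502). MCM10, at 12.6, 5.76 and 0.879 CPM (-3.85), and CDC45, at 6.77, 4.22 and 0.624 CPM (-3.44), lay near the lower end. GINS1 stood at 17.3, 10.7 and 4.82 CPM (-1.84). The clamp loader was less uniform: RFC4 stood at 11.9, 7.52 and 1.93 CPM (-2.63) and RFC1 at 58.8, 43.7 and 33.4 CPM (-0.81, not called). PCNA stood at 71.1, 49.97 and 32.0 CPM (-1.15).

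The group of polymerases, primase and RPA held the lowest member of the list beside members level with control. POLE2, an accessory subunit of the leading-strand polymerase, had 142, 42 and 4 counts (3.76, 1.54 and 0.113 CPM) and the lowest ratio of all members (log2 -5.05, interval -6.94 to -3.66). Its catalytic partner POLE stood at 27.0, 22.0 and 14.7 CPM (-0.87), under the limit. POLA1 (14.5, 12.4 and 3.86 CPM, -1.91) was called lower and POLA2 (20.4, 18.5 and 16.8 CPM, -0.28) was not. RPA1 (62.1, 71.7 and 62.4 CPM, 0.01, -0.08 to 0.09) and RPA2 (21.7, 24.4 and 23.9 CPM, 0.14, -0.01 to 0.28) had intervals that include 0.

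TK1, TYMS and RRM2, enzymes of thymidine and deoxynucleotide supply, were among the lowest in shHuR. TK1 stood at 65.6, 24.9 and 3.01 CPM (log2 -4.45, 21.8-fold lower), RRM2 at 77.4, 54.9 and 4.88 CPM (-3.99, 15.9-fold lower) and TYMS at 72.5, 30.9 and 5.11 CPM (-3.83). RRM1, the constant subunit of the same reductase, stood at 57.8, 54.5 and 32.4 CPM (-0.83) and was not called.

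Among the lagging-strand genes, LIG1, the ligase that seals Okazaki fragments, stood at 20.4, 9.87 and 4.14 CPM (log2 -2.3) and the nuclease EXO1 at 12.8, 5.28 and 2.21 CPM (-2.53). FEN1 (-1.45) and BRCA1 (-1.17) were also called. CLSPN stood at 12.9, 6.64 and 0.823 CPM (-3.97), while its fork partner TIPIN stood at 4.87, 3.67 and 3.72 CPM (-0.39, -0.72 to -0.06). The histone chaperone subunit CHAF1B stood at 13.0, 5.47 and 1.36 CPM (-3.26), its partner CHAF1A at 28.4, 19.4 and 12.6 CPM (-1.17) and DNMT1 at 112, 67.0 and 45.7 CPM (-1.29).

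The G1/S regulators went separate ways. E2F2 had 199, 78 and 9 counts (5.26, 2.86 and 0.255 CPM, log2 -4.37, interval -5.52 to -3.41). E2F1 stood at 21.7, 8.26 and 5.98 CPM (-1.86), most of the difference being present in the shADAR1 library. CCNE2 stood at 4.31, 4.55 and 0.511 CPM (-3.08), with 37.1% of its exon length shared with genes on the other strand. CCNE1 alone was ordered the opposite way, at 7.03, 11.3 and 13.6 CPM (0.95, 0.73 to 1.17), 1.93-fold higher in shHuR and short of the limit.

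**Figure D2:**
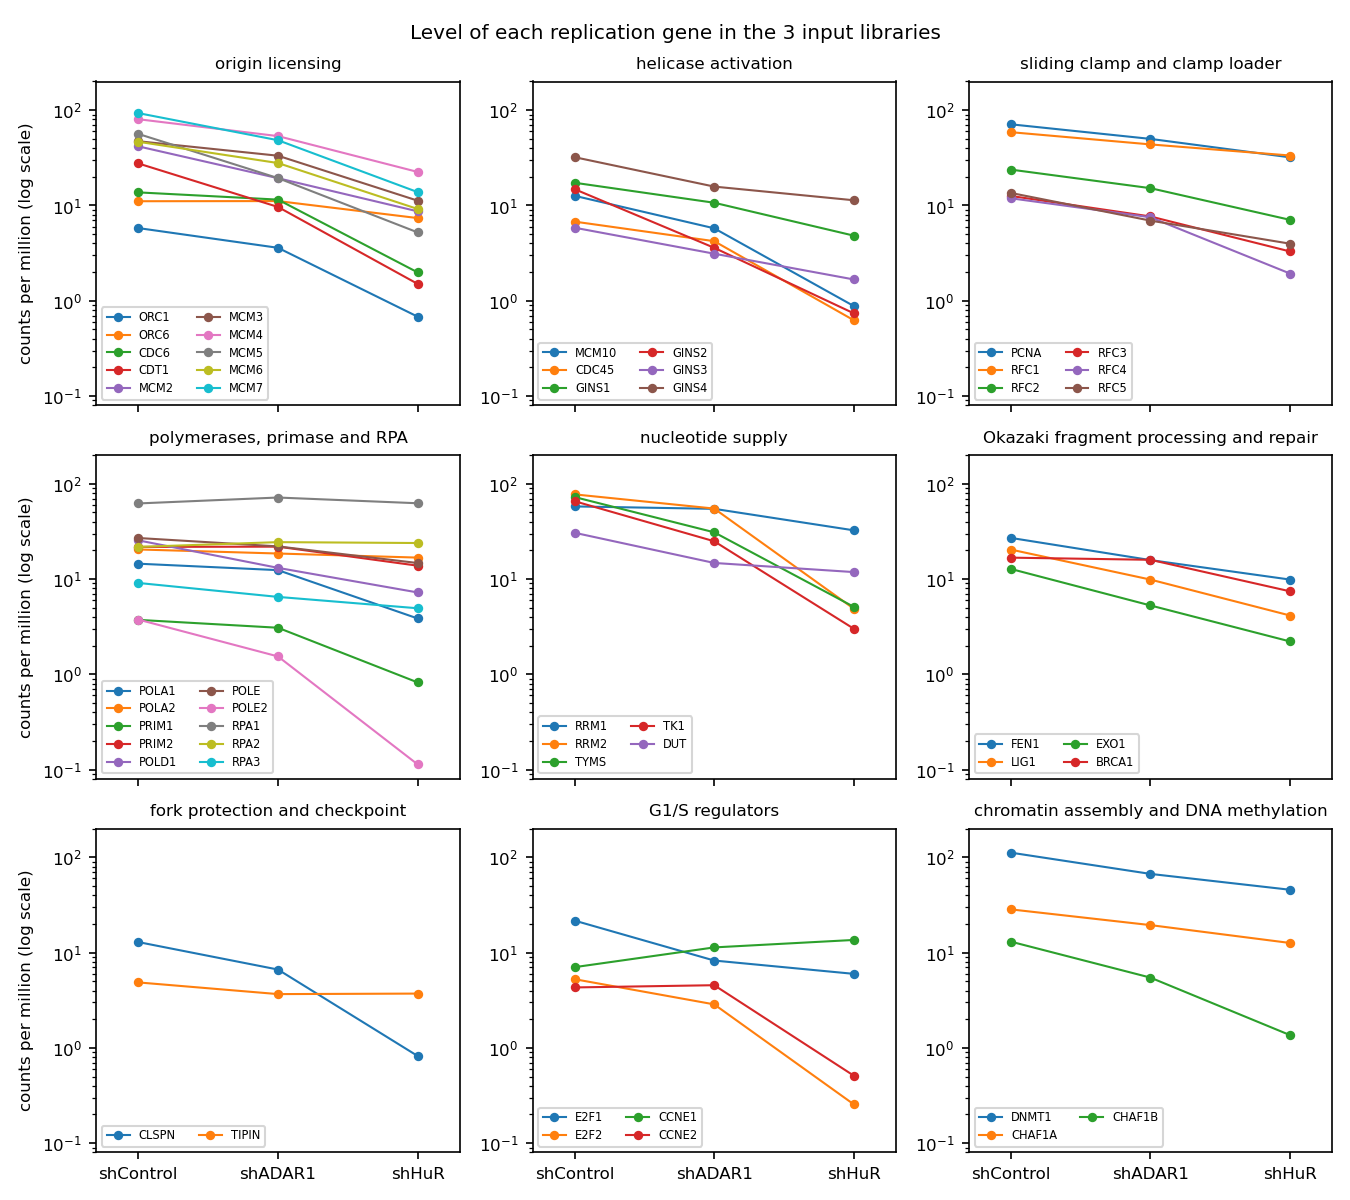
Level of each member in the shControl, shADAR1 and shHuR input libraries in TMM-scaled CPM on a log axis, 1 panel per role and 1 line per gene. Levels are highest in shControl and lowest in shHuR for 43 of 50 genes; CCNE1 goes from 7.03 to 13.6, and RPA1 and RPA2 stay nearly level.

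Taking the 3 inputs in order, 43 of 50 members (86%) were highest in shControl and lowest in shHuR, and 26.7% of 13069 genes with enough counts had that order. ORC6, PRIM2, RPA1, RPA2 and CCNE2 were highest in shADAR1, TIPIN was lowest in shADAR1, and CCNE1 had the reverse order. For ORC6, PRIM2 and CCNE2 the interval of shADAR1 against shControl included 0, as it did for RRM1, BRCA1, PRIM1 and POLA2 among the 43. The interval of shHuR against shADAR1 included 0 for RPA2 and for POLA2, and TIPIN differed by 0.02 between shHuR and shADAR1. These places in the order are not resolved. Set directly against shADAR1, the shHuR input had 28 of 49 members called lower, against 9.67% of 13020 genes, and 0 higher, against 5.24%. RRM2 (-3.49), E2F2 (-3.49), CCNE2 (-3.16), TK1 (-3.05) and CLSPN (-3.01) had the lowest of these ratios, and POLE2 had too few counts for a call.

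Members with and without an E2F motif in the promoter had similar medians. In the shHuR input their median log2 ratio was -1.99 over 16 genes against -1.82 over 28 genes. The corresponding medians were -0.80 and -0.68 in the shADAR1 input and 0.37 and 0.28 in the RNA-seq pair.

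Markers of dividing cells moved in the inputs beside the members. MKI67 stood at 153, 72.7 and 6.10 CPM in the shControl, shADAR1 and shHuR inputs. The 5 proliferation markers, MKI67 among them, had a median log2 ratio of -1.07 in shADAR1 and -4.40 in shHuR. In the RNA-seq pair their median was 0.03. The part of the share of dividing cells in the members' differences was not tested.

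Markers of other cell types differed between the same libraries. The summed level of 5 endothelial markers, in CPM without TMM scaling, was 19.5, 73.2 and 37.0 in the shControl, shADAR1 and shHuR inputs and 54.2 and 88.8 in the RNA-seq control and knockdown. Most of it was the receptor TEK, with 641, 2049 and 1270 counts in the inputs, while CDH5 was at 0 in all 5 of these libraries. For 6 leukocyte markers the sums were 0.817, 5.99 and 1.26 in the inputs and 0.23 and 0.197 in the RNA-seq pair; CD14 had 1, 152 and 15 counts in the inputs, and CD3E and ITGAM were at 0 in all 5. In the shADAR1 input 1 endothelial and 1 leukocyte marker were called higher, and 2 of 8 fibroblast markers were. The 6 epithelial markers summed to 2.10, 1.02 and 0.918 in the inputs and 14.4 and 15.3 in the RNA-seq pair. The part of these markers' cells in the members' differences was not tested.

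Of 43 other replication genes, 16 were lower and 0 higher in the shADAR1 input, against 10.6% and 8.94% of all genes (median log2 ratio -0.62). In the shHuR input 28 were lower and 1 higher, against 15.9% and 12% (median -1.17). The lowest in shADAR1 were the phosphatase CDC25A (16.1 and 4.51 CPM, -1.84), the clamp loader subunit CHTF18 (-1.57) and the polymerase subunit POLD2 (-1.55). In shHuR they were the histone chaperone ASF1B (14.7 and 0.511 CPM, -4.85), topoisomerase TOP2A (93.4 and 5.76 CPM, -4.02) and TICRR, an initiation factor (-3.60). At the high end stood ORC3 (0.95 and 0.78 in shADAR1 and shHuR), POLD4 (0.33 and 0.79) and RRM2B, the p53-inducible reductase subunit (65.1, 119 and 139 CPM; 0.88 and 1.10). In the RNA-seq pair 1 of the 43 was higher and 1 lower, against 8.31% and 7.71% of all genes. With 20 of the 43 above 0 and 23 below, the median was -0.10. POLE3 (55.5 and 132 CPM, 1.25) was the higher one and RRM2B (264 and 95.8 CPM, -1.46) the lower. ASF1B (0.68) and POLE4 (0.68) followed on the high side, and ORC4 (-0.86) and TOPBP1 (-0.85) on the low side.

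ADAR1 knockdown had opposite signs in the 2 experiments for most members. Log2 ratios were above 0 in the RNA-seq pair and below 0 in the shADAR1 input for 37 of 50 members (74%), above 0 in both for 5 and below 0 in both for 7. Some of these signs are not resolved by counting, as for RFC3, TYMS, PRIM1 and POLE, whose RNA-seq intervals included 0. Neither opposite signs nor opposite calls were counted over all genes, whose medians in these comparisons were -0.01 and -0.04. Whether either is particular to the members was therefore not tested. E2F1 was the 1 member called in both, higher in one (1.11) and lower in the other (-1.39). Among members called in the shADAR1 input, GINS2 (0.68 and -2.04), E2F1, MCM5 (0.68 and -1.54) and DUT (0.86 and -1.05) had the widest gaps. RPA1 and RPA2 were above 0 in both (RPA2 0.67 and 0.17), and RFC1 was below 0 in both (-0.85 and -0.43).

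**Figure D3:**
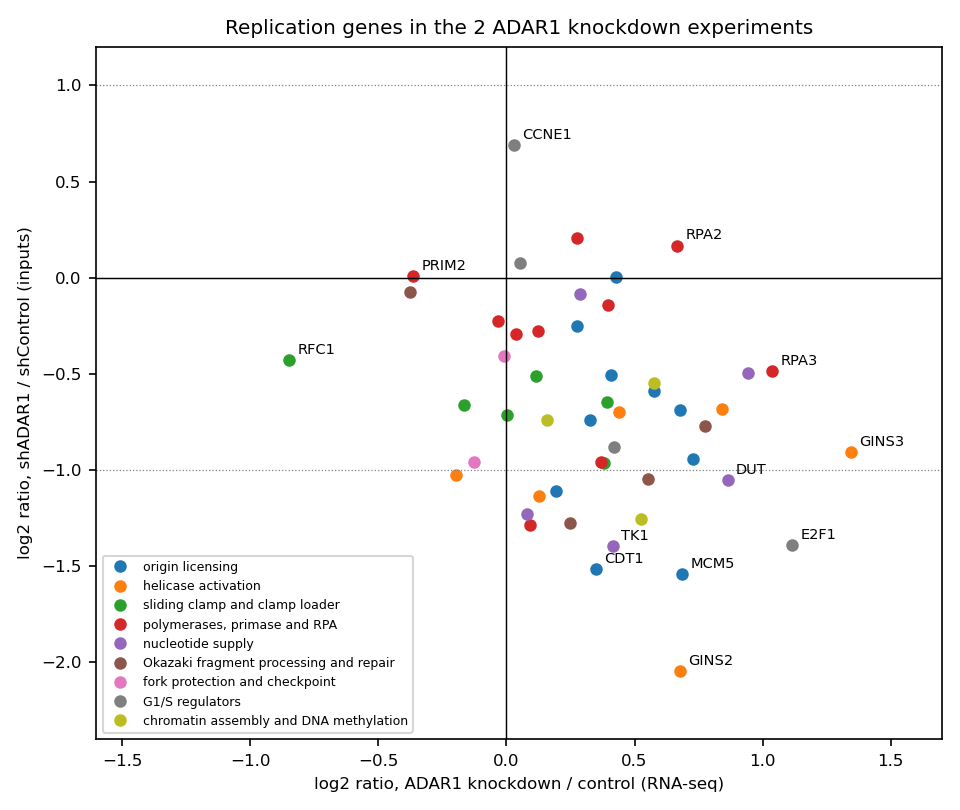
Log2 ratio after ADAR1 knockdown in the RNA-seq pair (horizontal) against that of the shADAR1 input over the shControl input (vertical), 1 point per member, coloured by role, dotted lines at 2-fold. The lower right area holds 37 of the 50 points, with E2F1 at 1.11 and -1.39.

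A test over both experiments was possible with 4 libraries, the experiment as block and 1 residual degree of freedom. By edgeR's quasi-likelihood test 0 of 50 members passed a Benjamini-Hochberg adjusted p of 0.05, 0 had an unadjusted p below 0.05, and DESeq2 called 0 as well. Of 15994 genes tested, 0.0813% were called higher and 0.0125% lower, so the design made few calls at all. The fitted log2 change was near 0 where the experiments cancelled, as for MCM4 (-0.01), FEN1 (0.01) and ORC1 (0.01). With 1 control and 1 knockdown library per experiment, the residual is the difference of the knockdown effect between the experiments. Opposite signs, as for E2F1, widen the error and bring the estimate towards 0. The p-values therefore do not measure the spread among replicate cultures of 1 condition, nor anything wider.

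HuR recovery was read as the ratio of precipitate to input within each line, scaled over these 6 libraries; counts are given here, and the TMM factors that multiplied total counts were 1.42, 1.31 and 1.38 for the shControl, shADAR1 and shHuR inputs and 0.775, 0.722 and 0.692 for the precipitates. Without a mock precipitate, recovery does not separate binding from carry-over. Replication RNAs were mostly recovered below their input, with a small set far above it. Over the 3 lines, with the line as block and 2 residual degrees of freedom, 6 of 50 members rose and 28 fell in the precipitate at an adjusted p of 0.05 in edgeR's quasi-likelihood test, against 30.3% of 16232 genes called higher and 31.3% lower. The median log2 change was -1.21 over the members and -0.11 over all genes. The 3 lines are different conditions with 1 precipitate each, and in shHuR the precipitated protein itself was targeted. The p-values of this test thus rest on differences between the lines and not on replicate precipitates of 1 condition.

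GINS1 was recovered most. It had 655 counts in the input and 5092 in the precipitate of shControl, 291 and 2802 in shADAR1, and 170 and 1449 in shHuR. The log2 enrichments were 3.75, 3.48 and 4.34, high in every line, and the change over the lines was 3.90 (SE 0.32, adjusted p 1.02e-05 in edgeR). The other GINS subunits did not follow: GINS2 fell (-2.32, SE 0.45, adjusted p 0.00126), while GINS3 (-0.84) and GINS4 (-0.20) did not pass the test.

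PRIM2 had 822 and 5008 counts in shControl, 596 and 3925 in shADAR1, and 487 and 1227 in shHuR, with log2 enrichments of 3.40, 2.93 and 2.59 and a change of 3.02 (SE 0.30, adjusted p 1.91e-05 in edgeR). Its partner PRIM1 did not pass (-0.25, adjusted p 0.639). E2F2, with 199 and 449, 78 and 353, and 9 and 28 counts, rose by 2.38 (SE 0.37), whereas E2F1, with 820 and 118, 225 and 98, and 211 and 54 counts, fell (-1.20, SE 0.37). Within both pairs, then, 1 partner rose over the lines by the test and the other did not. By line, PRIM1 was above its input in shControl (log2 0.41, interval 0.03 to 0.78) and below it in shADAR1 (-0.69) and shHuR (-0.80, under 50 counts).

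Both fork protection genes rose, CLSPN by 2.302 (SE 0.33; 488 and 1451 counts in shControl) and TIPIN by 2.27 (SE 0.33; 184 and 557 counts), although 21.0% of the exon length of TIPIN is shared with a ribosomal pseudogene. RRM2 rose by 1.43 (SE 0.27, adjusted p 0.00101 in edgeR), with 2926 and 4661, 1496 and 3080, and 172 and 194 counts in the 3 lines. RRM1 fell (-1.92, SE 0.31), with 2187 input and 344 precipitate counts in shControl.

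TK1 fell the most (-2.63, SE 0.43, adjusted p 0.000413 in edgeR), with 2481 and 122 counts in shControl, 679 and 101 in shADAR1, and 106 and 14 in shHuR. MCM7 (-2.34), RFC4 (-2.26), RPA3 (-2.003) and MCM5 (-1.996) also fell, as did all 4 genes of Okazaki fragment processing and repair and all nucleotide enzymes other than RRM2. In the MCM ring, MCM2, MCM5, MCM6 and MCM7 fell, and MCM3 (0.58) and MCM4 (0.25) did not pass. Without the shADAR1 line 18 members fell, beside 3589 of 15613 genes. Without a line block 14 members fell and 3 rose, beside 3020 and 3590 of 15342 genes. Scaling by total counts lowered the median enrichment of all genes from -0.25 to -1.11 in shControl, so directions are relative to that scale; RRM2 came to 0.59 in shControl and GINS1 to 2.87.

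By the 2-fold rule, 8 members were above and 26 below their input in shControl, against 30.7% and 38.4% of all genes. In shADAR1 the numbers were 6 and 28, against 30% and 37.5%, and in shHuR 4 and 16 of 40 members with enough counts, against 25.5% and 25.4%. Scaled by total counts, the numbers above and below were 5 and 33 in shControl, beside 2384 and 6908 of 13309 genes. In shHuR they were 2 and 32, beside 1960 and 7403 of 13061 genes. CDC6 and CCNE2 completed the 8 of shControl and were not called above input in the other lines. CDC6 had 519 and 1016 counts in shControl, 314 and 420 in shADAR1, and 70 and 18 in shHuR, for log2 enrichments of 1.76, 0.63 and -0.71. CCNE2 had 163 and 236, 124 and 116, and 18 and 5 counts, for 1.32, 0.12 and -0.60.

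In the shHuR line, where ELAVL1 RNA was lower, changes of recovery were called for members at shares near those of all genes. TMM scaling sets libraries to a common level, so an overall loss of recovered RNA would not show here. Differences in enrichment were called at 1.5-fold, with intervals by a normal approximation to the counting error. In shHuR against shControl 16 of 40 members were higher, against 39.4% of 12468 genes, and 8 were lower, against 23.5%. The median difference was 0.38 over the members and 0.25 over all genes. The members lower were CDC6 (-2.47, -3.22 to -1.71), RFC3 (-1.63), RPA2 (-1.12), RFC5 (-1.06), PRIM2 (-0.81), DUT (-0.80), MCM3 (-0.72) and PCNA (-0.71). Those furthest on the other side had been far below input in shControl: POLD1 (3.07, 2.54 to 3.60), CDT1 (2.88), RFC4 (2.87) and MCM7 (2.47). The difference subtracts the shControl enrichment, and their inputs were lower in shHuR (3.52-, 18.4-, 6.17- and 6.75-fold, in that order). Precipitate CPM in shControl and shHuR was 1.79 and 4.30 for POLD1 and 3.91 and 1.58 for CDT1. It was 0.828 and 0.988 for RFC4 and 6.36 and 5.29 for MCM7. A higher ratio here is therefore not read as more RNA recovered. Of the 6 members that rose over the lines, PRIM2 was lower in shHuR by this rule, GINS1 (0.60), RRM2 (-0.04) and TIPIN (-0.39) were not called, and CLSPN and E2F2 had too few counts.

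In shADAR1 against shControl, 7 of 49 members were higher, against 19.7% of 12641 genes, and 9 lower, against 14.2%. Once GC and length trends were taken out, 3 members were higher and 7 lower, and over all genes 988 were higher and 1232 lower. The higher ones were POLD1 (1.61), E2F1 (1.02), TK1 (1.02), GINS2 (0.77), LIG1 (0.70), CDT1 (0.70) and MCM7 (0.69). CCNE2 (-1.21), CDC6 (-1.13), PRIM1 (-1.09), ORC6 (-1.05) and DUT (-1.04) were the lowest.

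Enrichment in shControl went with T runs in the 3′ untranslated region, a description across genes, which are not independent replicates. Overlapping runs of TTTTTTT were counted, and Spearman's rho with log2 enrichment was 0.46 over 50 members and 0.69 over 11849 coding genes, all from the same pair of libraries. At least 1 run stood in 26 members (52%) and in 53.6% of coding genes. The median log2 enrichment was -0.50 for members with a run and -1.87 for those without, and 0.93 and -1.89 for coding genes. The rho with the length of the region was 0.41 over members and 0.56 over coding genes.

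Single members departed from that relation. RRM2 (15 overlapping runs), PRIM2 (12), E2F2 (10) and GINS1 (8) were above their input. CHAF1B (13 runs, log2 enrichment 0.15), MCM6 (10 runs, -1.42) and LIG1 (9 runs, -2.52) were near or below it. CLSPN had 0 such runs in the region used and an enrichment of 2.36. Whether the transcript with the longest region was the one expressed in these cells was not tested for any member. The motif TATTTAT, a longer form of the AU-rich element, stood in 11 members (22%) and 36.6% of coding genes, with a rho of 0.28 and 0.39.

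**Figure D4:**
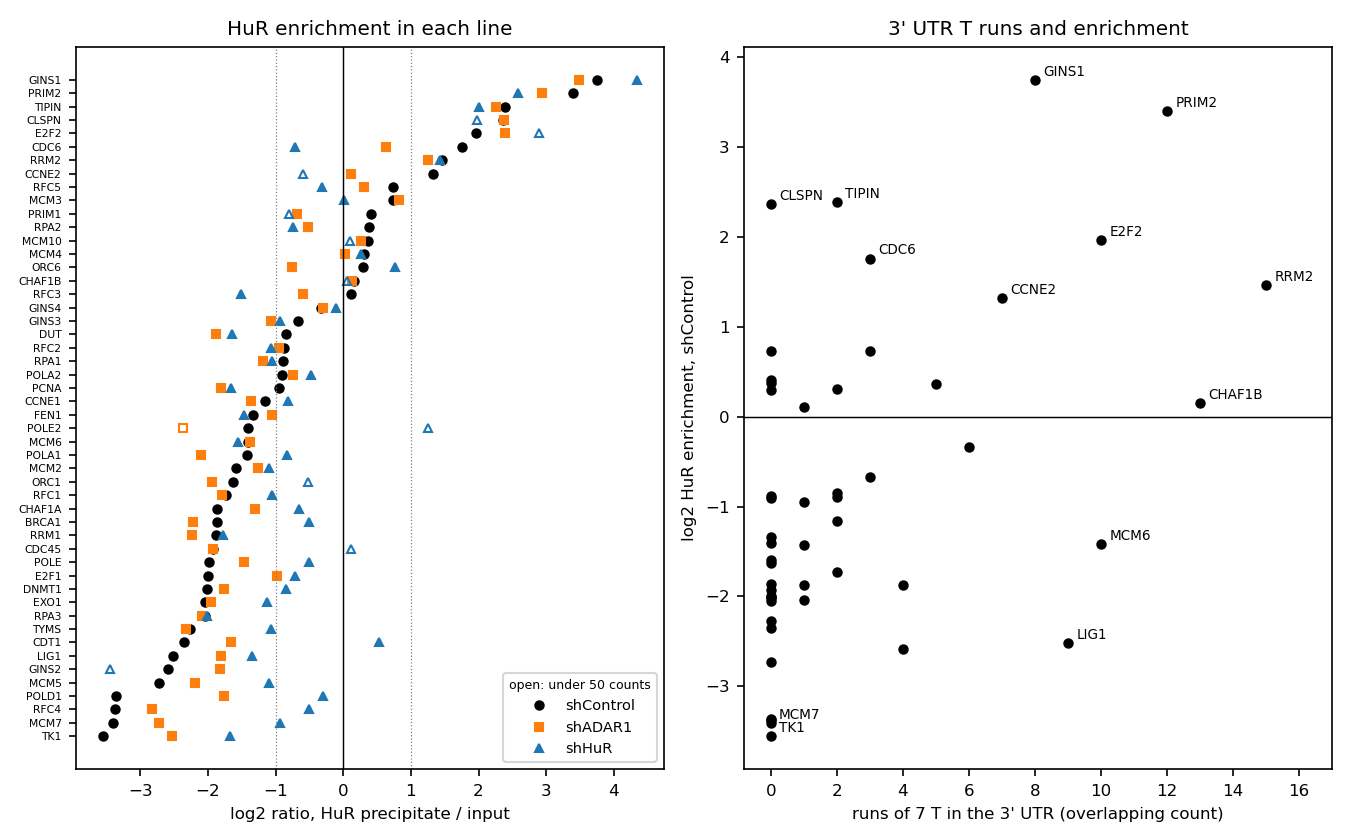
Left, log2 ratio of HuR precipitate to input for each member in the shControl, shADAR1 and shHuR lines, ordered by shControl, open where neither library reached 50 counts; right, log2 enrichment in shControl against the number of overlapping runs of 7 T in the 3′ untranslated region. GINS1 and PRIM2 stand highest in shControl and shADAR1. LIG1 (-2.52) and MCM6 (-1.42) lie low, with 9 and 10 runs in the longest annotated region.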

How the data were processed

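Per the submitters' processing notes, RSEM 1.2.3 made the deposited expected counts per gene, and hg19 and GRCh37 are the builds listed. The deposited values are whole and entered the count models as they were. FPKM values, scaled by the authors for length and library size, came with the RNA-seq pair. For aligner, annotation release and strand setting the sources used here give nothing, so antisense partners could not be separated. Members and lists were chosen with earlier results of these data known, and all members may be named. The other replication genes named are the 3 highest and 3 lowest in a comparison. PECAM1 among the endothelial markers and UHRF1 had no match.

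Each group held 1 library. Log2 ratios used TMM scaling in edgeR 4.0.16, a prior count of 2 for calls and medians and no prior count for single genes, with intervals at 95%. Calls needed 2-fold and 50 counts. ADAR1 knockdown (4 libraries, experiment as block) and precipitate against input (6 libraries, line as block) were tested with edgeR's quasi-likelihood test, its count filter and Benjamini-Hochberg adjustment at 0.05. The pairing comes from the labels, since a block is 1 experiment or 1 line. Both edgeR designs were also run on simulated counts with known changes, without the count filter and without opposite changes between experiments. That outcome is not given here. Alternatives were DESeq2 1.42.0, other scalings, count limits and prior counts, FPKM with a pseudocount of 0.5, removal of GC and length trends with mgcv 1.9.3, and leaving out libraries or lines. Total counts of 28390935 to 50711218 set the counting precision. Exon sharing and untranslated regions came from GENCODE 29, and near-identical copies (300 bases or more at 95% identity) from blastn. Motifs were matched letter by letter.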

Additional observations from a re-analysis of the deposited data

Results flagged for a closer look

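E2F1 had a log2 ratio of 1.11 after ADAR1 knockdown in the RNA-seq pair and -1.39 in the shADAR1 input, both past 2-fold and in opposite directions. The RNA-seq value was under 2-fold with GC and length trends removed (0.92) and with the authors' FPKM plus a pseudocount of 0.5 (0.96). With 1 library per group, the difference between the experiments was not tested.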

How the results depend on the processing

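Member counts in the RNA-seq pair and the inputs stayed within 1.5 times of the reported ones under every alternative run, and 0 single values of a member that was called changed sign. Scaling by total counts left 5 members above input in shControl, beside 2384 of 13309 genes. In shHuR it left 2 members above and 32 below, beside 1960 and 7403 of 13061 genes. With GC and length trends removed, 5 members were above input in shControl, where 3080 of all genes were. Then 3 members had a higher enrichment in shADAR1 than in shControl, as did 988 genes. A lower one in shHuR than in shControl was left for 5 members and 2115 genes. For the ADAR1 knockdown test, calls over all genes numbered 140 higher and 34 lower without the count filter, and 93 and 27 with DESeq2. Without the replicate block they were 0 and 0, and leaving out 1 library gave 0 to 14 higher and 0 to 11 lower; 0 members were called in any of these. For the precipitate test without the replicate block, 3 members were higher and 14 lower, with 3590 genes higher and 3020 lower. Leaving out 1 line gave 2831 to 5383 genes higher, 3589 to 5863 genes lower and 18 to 31 members lower, the lowest of each without the shADAR1 line. The cause of these shifts was not tested. In the shHuR line 10 members were under 50 counts in both input and precipitate, so their enrichment was not called.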

Other observations

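Among 43 other replication genes, 5 rose and 22 fell in the HuR precipitate by edgeR's quasi-likelihood test over the 3 lines, where 30.3% of all genes were called higher and 31.3% lower. ORC2, a subunit of the origin recognition complex, had 1181 input and 4806 precipitate counts in shControl and rose by 2.90 on the log2 scale (SE 0.28, adjusted p 1.62e-05 in edgeR). MCM9, a helicase of repair, rose by 2.65 (SE 0.32) and CDC25A by 2.02 (SE 0.32), and both were above 2-fold in each line. GMNN, which inhibits CDT1, had 680 and 29 counts in shControl and fell (-2.99, SE 0.42), followed by POLD2 (-2.44) and POLD4 (-2.28).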
